A study of Mus musculus with 6 samples.

Results

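The amyloid precursor protein gene App and 9 genes that belong to its family or act on its transport were followed in the hippocampus of Tg2576 mice. The other genes were the App relatives Aplp1 and Aplp2, the adaptors Apba1, Apba2, Apbb1 and Apbb2, the App-binding membrane protein Itm2b, and the sorting and uptake receptors Sorl1 and Lrp1. Every probe set of the array that is annotated with 1 of these 10 symbols and no other was taken, which gave 28 of 45101 probe sets. Their signals were compared between 3 groups of mice.

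All mice were male C57BL/6 Tg2576 animals, on the C57BL/6J background per the study's methods. They carry human APP695 with the Swedish double mutation under the prion protein promoter, which the study describes as neuron-specific. Untreated mice of 18 months (Tg-18mo) had a high Aβ plaque load and untreated mice of 12 months (Tg-12mo) a low one, per the labels. Tg-18mo-ACEI mice were 18 months old and had received the ACE inhibitor captopril, which blocks the making of angiotensin II, in the drinking water at 20 mg/kg per day for 6 months. Each group was represented by 2 Affymetrix MG430 2.0 chips, and each chip by hippocampal RNA pooled from 4 mice. Because all 3 groups carry the transgene, no difference between the groups is a difference from mice without it. Whether the probe sets for App also bind the RNA of the human transgene was not tested.

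App is a membrane protein of neurons and other cells that is cut by secretases, and one of its fragments is the Aβ peptide of amyloid plaques. Aplp1 and Aplp2 are built like App but lack the Aβ sequence. The cytosolic tails of all 3 proteins bind adaptors, among them the X11 or Mint proteins (Apba1 and Apba2) and the Fe65 proteins (Apbb1 and Apbb2), while Sorl1 holds App in recycling compartments and Lrp1 takes up App and Aβ from the cell surface.

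The promoter windows of App, Aplp2 and Lrp1 are shown as examples. Lrp1 and most Aplp2 probe sets had lower signals in both other groups than in Tg-18mo, and App did not. Apba1, Apba2 and one probe set of Aplp1 were also lower in both, and their windows are not printed. Each window runs from 250 bases before to 50 bases after a RefSeq transcription start (build GRCm38.p6) and is written 5′ to 3′ on the strand of the gene. Capitals mark the GC box, GGGCGG or its reverse complement.
App, chr16:85173658-85173957, minus strand: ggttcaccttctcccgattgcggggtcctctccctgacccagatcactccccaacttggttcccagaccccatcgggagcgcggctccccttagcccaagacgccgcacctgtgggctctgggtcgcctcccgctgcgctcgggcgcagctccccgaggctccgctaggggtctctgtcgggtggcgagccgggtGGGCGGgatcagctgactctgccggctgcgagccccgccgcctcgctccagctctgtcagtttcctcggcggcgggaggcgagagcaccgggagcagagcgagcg
Aplp2, chr9:31211799-31212098, minus strand: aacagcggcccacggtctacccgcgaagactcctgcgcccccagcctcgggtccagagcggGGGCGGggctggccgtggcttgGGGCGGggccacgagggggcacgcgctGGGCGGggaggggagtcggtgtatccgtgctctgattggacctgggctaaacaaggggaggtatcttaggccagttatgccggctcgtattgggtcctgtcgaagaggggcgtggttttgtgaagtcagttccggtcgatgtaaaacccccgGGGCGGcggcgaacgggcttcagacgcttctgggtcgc
Lrp1, chr10:127621099-127621398, minus strand: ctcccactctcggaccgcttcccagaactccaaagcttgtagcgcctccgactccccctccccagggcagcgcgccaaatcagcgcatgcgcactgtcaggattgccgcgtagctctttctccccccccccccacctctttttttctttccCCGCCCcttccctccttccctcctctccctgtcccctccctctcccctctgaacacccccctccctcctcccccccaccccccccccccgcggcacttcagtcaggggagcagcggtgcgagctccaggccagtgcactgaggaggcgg
The App window holds 1 GC box, the Aplp2 window 4 and the Lrp1 window 1. The 10 genes have 15 such windows in RefSeq, of which 11 hold a GC box on either strand, at least 1 for each gene, against 35.7% of 32851 windows of all genes. A TATA box (TATAAA on either strand) was found in 0 of the 15 windows and in 13.6% of all windows, CCAAT in 3 and in 37.4%, and the E box CACGTG in 1 and in 7.15%. The median GC content was 68.7% in the 15 windows and 52.7% in all windows, and the median number of CpG dinucleotides was 21 and 7. These letters describe the sequence only and say nothing about which factors bind there.

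Of the 28 probe sets, 22 had a group mean that reached 100 somewhere and were tested. They comprised 2 of 4 probe sets for App, 2 of 2 for Aplp1, 5 of 5 for Aplp2, 1 of 3 for Apba1, 1 of 1 for Apba2, 2 of 2 for Apbb1, 3 of 3 for Apbb2, 2 of 3 for Itm2b, 3 of 3 for Sorl1 and 1 of 2 for Lrp1. The lowest group mean among the 22 was 103.2, so none of them passed through 1 group alone. The 6 others had group means of at most 69.9. Signals are linear intensities scaled by the authors to a target value of 600. Differences are given as log2 of the signal ratio ± SE with 2 chips per group, and adjusted p refers to limma with Benjamini-Hochberg adjustment over 23262 probe sets, called at 0.05. The spread behind each p-value is that between chips of pooled RNA, which may be technical, and not that between mice. The levels of different genes were not compared, since probe sets differ in binding. In whole hippocampus, fewer cells of a type and less RNA per cell cannot be told apart.

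Captopril went with lower signals for Lrp1, both X11 adaptors, one probe set of Apbb1 and one of Aplp1, and most of the Aplp2 probe sets, whereas 1 probe set each of App, Aplp2 and Sorl1 rose. Of the 22 probe sets, 3 were higher and 8 lower in Tg-18mo-ACEI than in Tg-18mo. Over all probe sets tested, 15.9% were called higher and 17.7% lower. The members' shares were 13.6% and 36.4%. In either direction 11 members (50%) were called, beside 33.6% of all. The median log2 difference of the 22 was -0.11 against -0.045 for all probe sets tested. The differences ranged from -0.55 to 0.86, and 0 members reached a 2-fold difference in this or the other comparisons, beside 4.23% of all probe sets tested with captopril, 4.79% between the ages and 3.57% between Tg-18mo-ACEI and Tg-12mo.

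Between the ages, 6 of the 22 had higher and 10 lower signals in Tg-12mo against Tg-18mo, which is 27.3% and 45.5%, beside 21.5% and 25.9% of all probe sets tested. Together these were 16 members (72.7%), beside 47.3% of all. The median log2 difference was -0.097 for the members and -0.046 for all. Lrp1, 4 of the 5 probe sets of Aplp2, Apba1, Apba2, one probe set of Apbb2, one of Sorl1 and one of Aplp1 were lower at 12 months under every scaling tried. The brightest probe sets of App, Aplp1 and Itm2b were higher at 12 months as deposited, but not after quantile normalization. With that scaling 2 members were called higher and 13 lower, while over all probe sets about as many were called higher as lower. The median log2 difference with that scaling was -0.18 for the members and -0.0051 for all. In Tg-18mo-ACEI against Tg-12mo, 7 of 22 were higher and 5 lower (31.8% and 22.7%), beside 22.3% and 17.7% of all, or 12 (54.5%) beside 40.1% in either direction. After quantile normalization 10 were higher and 1 lower, while over all probe sets about as many were called higher as lower. Fewer members were higher without Tg-18mo-ACEI replicate 1. The medians of the members and of all in this comparison were 0.095 and 0.045 as deposited. With quantile normalization they were 0.14 and -0.0015. The 3 comparisons use the same chips in pairs and are not independent of each other.

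**Figure D1:**
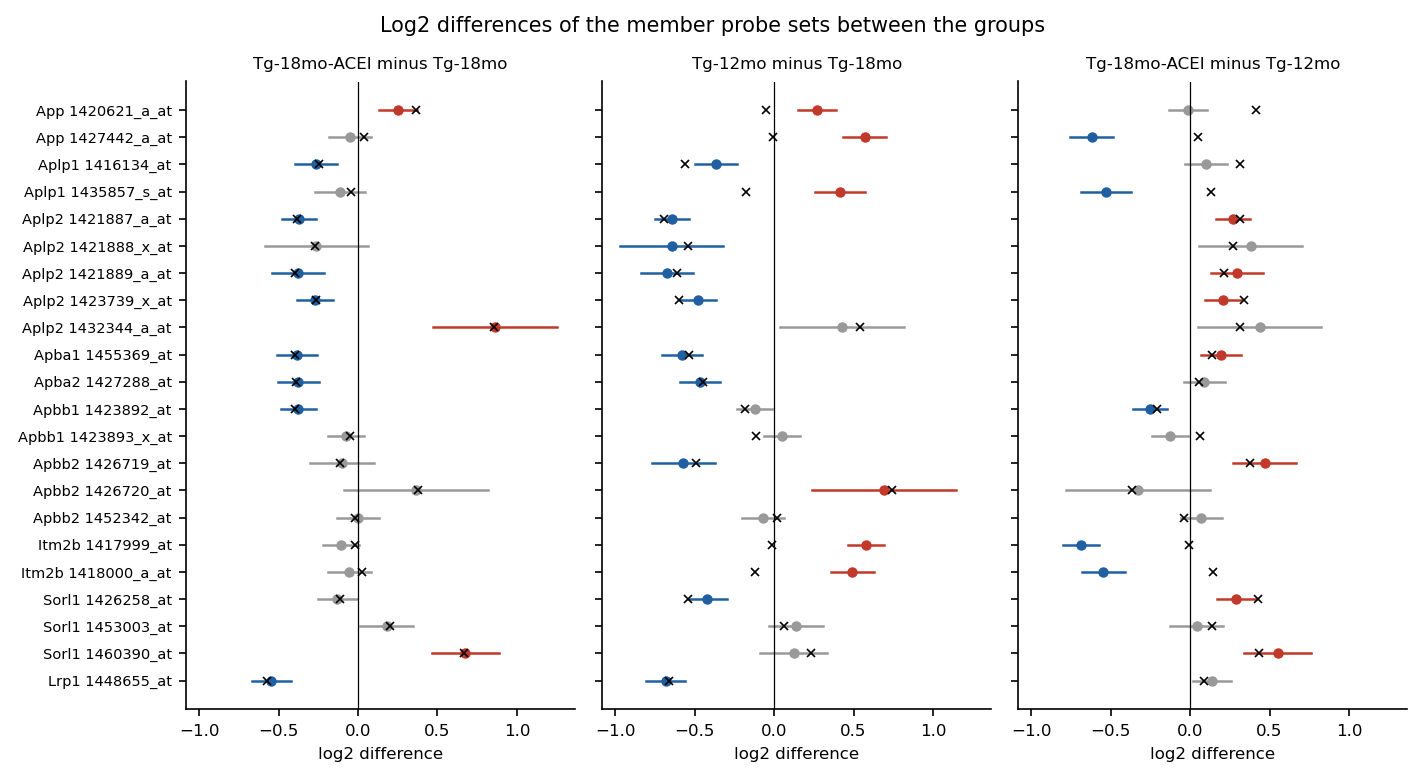
Log2 differences of the 22 tested probe sets (x axis) in the 3 comparisons, with 95% confidence intervals from limma; red points were called higher, blue points lower and grey points not called, and crosses give the difference after quantile normalization. With captopril, 8 probe sets lie lower and 3 higher; in both comparisons with Tg-12mo the crosses of App, Aplp1 and Itm2b lie away from their points.

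Some facts of the chips bear on these results. The log2 signals of the chips of a group correlated with r between 0.987 and 0.992 over the tested probe sets, and those of different groups with r between 0.958 and 0.965. The brightest signals were lower at 18 months than at 12 months. The highest signal on a chip was between 21934 and 25102 at 18 months, with and without captopril, and 39494 and 40189.9 at 12 months. Of 633 probe sets with a mean of at least 10000 over the 6 chips, 586 (92.6%) were called higher at the younger age than in Tg-18mo, with a median log2 difference of 0.49, which was 0.01 after quantile normalization. All 5 member probe sets of that brightness were among those called higher. The signal of the 3′ control probe set for 18S ribosomal RNA reached 10219 and 11144 with Tg-18mo, and lay between 1999.95 and 2214 on the other 4 chips. The ratio of the 3′ to the 5′ control signal for β-actin, a sign of RNA integrity, was 1.45 and 1.38 in Tg-18mo-ACEI, below the 1.98 and 1.88 in Tg-18mo and the 1.83 and 1.77 in Tg-12mo. The part of these control values in the differences was not tested. The markers of hippocampal neurons, 10 of 10, reached the signal needed for testing, with Calb1, a calcium-binding protein, as the brightest (mean 6767 in Tg-18mo).

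**Figure D2:**
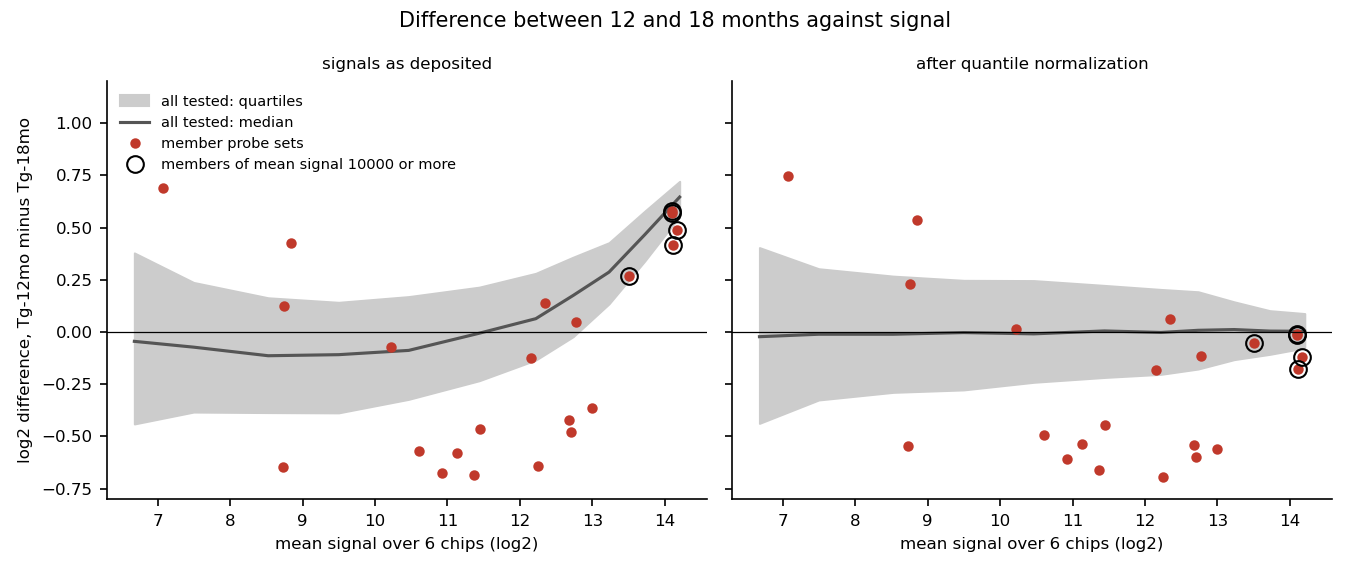
Log2 difference between Tg-12mo and Tg-18mo (y axis) against the mean signal over the 6 chips on a log2 scale (x axis), for the deposited signals on the left and after quantile normalization on the right. The line and band are the median and quartiles of all tested probe sets in bins of signal. Red points are the 22 member probe sets, and open circles mark the 5 with a mean of at least 10000. Those 5 lie above 0 on the left, where the line also rises above 0, though some lie under the band. On the right they lie below 0.

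App itself was measured by a pair of bright probe sets. The brighter, 1427442_a_at, had signals of 14497 and 15927 for Tg-18mo, 15190.3 and 14182 for captopril, and 22274 and 22862 for Tg-12mo. The chips of both 18 month-old groups overlapped and those of Tg-12mo lay above them. With captopril the log2 difference was -0.050 ± 0.059, adjusted p = 0.54, with a 95% interval from -0.18 to 0.084. The difference of Tg-12mo from Tg-18mo was 0.57 ± 0.059, adjusted p = 0.00012, and it was -0.0100 after quantile normalization (adjusted p = 0.83).

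The second App probe set, 1420621_a_at, had signals of 10308 and 10256 for Tg-18mo, 12337 and 12174 for captopril, and 11829 and 12961 for Tg-12mo. Here the Tg-18mo chips were the lowest and the other 4 chips overlapped. Its signal was higher with captopril by 0.25 ± 0.052, adjusted p = 0.007, a 1.19-fold difference. After quantile normalization the difference was 0.36 (adjusted p = 0.00065), and without an intensity trend in the prior variance the call was lost (adjusted p = 0.0555). Between the ages it was called higher in Tg-12mo by 0.27 ± 0.052, adjusted p = 0.0033, which became -0.054 (adjusted p = 0.36) after quantile normalization. Against Tg-12mo, captopril-treated mice differed by -0.015 ± 0.052, adjusted p = 0.84 as deposited and by 0.42 (adjusted p = 0.00038) after quantile normalization. Relative to the brighter App probe set, the captopril difference of 1420621_a_at from Tg-18mo was 0.30 ± 0.095, adjusted p = 0.08, and was not called. Its age difference departed by -0.30 ± 0.095, adjusted p = 0.055, also not called. Between Tg-18mo-ACEI and Tg-12mo the App probe sets departed by 0.61 ± 0.095, adjusted p = 0.013, which was called. That call did not hold when either captopril chip was dropped, with departures of 0.65 and 0.57. The 2 further App probe sets, 1438373_at and 1438374_x_at, stayed between 0.985 and 33.8 on the 6 chips and were not tested.

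Aplp1, the member of the family that is made almost only in the nervous system, was measured by 1435857_s_at and 1416134_at. The signals of 1435857_s_at were 15393 and 17139.6 for Tg-18mo, 15885 and 14189 for captopril, and 21550 and 21790.1 for Tg-12mo. The 18 month-old groups overlapped (-0.11 ± 0.069, adjusted p = 0.23). Tg-12mo lay above both, by 0.42 ± 0.069, adjusted p = 0.0014 against Tg-18mo as deposited, but below Tg-18mo at -0.18 (adjusted p = 0.0057) after quantile normalization. For 1416134_at the signals were 9169 and 9545 for Tg-18mo, 8139 and 7447 for captopril, and 7039.7 and 7490.4 for Tg-12mo. Both groups other than Tg-18mo lay below it, at -0.26 ± 0.058, adjusted p = 0.009 with captopril and at -0.37 ± 0.058, adjusted p = 0.0011 at 12 months. The captopril call was lost on dropping replicate 2 of Tg-18mo (adjusted p = 0.0632), on dropping replicate 2 of Tg-18mo-ACEI (adjusted p = 0.0647) and without an intensity trend (adjusted p = 0.0625). The age difference of 1416134_at was -0.56 after quantile normalization. Its difference from that of 1435857_s_at was -0.78 ± 0.090, adjusted p = 0.0038. Between Tg-18mo-ACEI and Tg-12mo, 1416134_at differed by 0.10 ± 0.058, adjusted p = 0.2 as deposited and by 0.31 (adjusted p = 0.0018) after quantile normalization.

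Aplp2, the relative of App that is made in most tissues, fell with captopril in 3 of its 5 probe sets, by 0.27 to 0.38 on the log2 scale. The brightest, 1423739_x_at, had signals of 7559 and 8134 for Tg-18mo, 6525 and 6449 for captopril, and 5673 and 5569 for Tg-12mo. The 3 groups did not overlap, with Tg-18mo highest, Tg-18mo-ACEI in between and Tg-12mo lowest. The captopril difference was -0.27 ± 0.049, adjusted p = 0.0038 and the age difference -0.48 ± 0.049, adjusted p = 0.00012. The same order of the groups was seen with 1421887_a_at, at 5863 and 6188 for Tg-18mo, 4689 and 4624 for captopril, and 3829 and 3894 for Tg-12mo. Its differences were -0.37 ± 0.047, adjusted p = 0.00067 with captopril and -0.64 ± 0.047, adjusted p = 2.7e-05 for Tg-12mo against Tg-18mo. The signals of 1421889_a_at were 2462 and 2408 for Tg-18mo, 1929 and 1816 for captopril, and 1425 and 1631 for Tg-12mo, again without overlap and in the same order. Its captopril difference was -0.38 ± 0.072, adjusted p = 0.0048 and its age difference -0.68 ± 0.072, adjusted p = 0.00014.

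A dim Aplp2 probe set, 1421888_x_at, gave 569 and 464 for Tg-18mo, 395 and 465 for captopril, and 303 and 357 for Tg-12mo. The 18 month-old groups overlapped, and the captopril difference was -0.26 ± 0.14, adjusted p = 0.19. It was lower at 12 months, at -0.65 ± 0.14, adjusted p = 0.006, a call that was lost on dropping replicate 1 of Tg-18mo (adjusted p = 0.0509). Between Tg-18mo-ACEI and Tg-12mo, the first 3 probe sets were higher with captopril, by 0.21 ± 0.049, adjusted p = 0.011 for 1423739_x_at, 0.27 ± 0.047, adjusted p = 0.0023 for 1421887_a_at and 0.30 ± 0.072, adjusted p = 0.012 for 1421889_a_at. Only the call of 1421887_a_at among these was kept when any chip was left out or the trend was dropped. The call of 1423739_x_at was lost on dropping replicate 1 of Tg-18mo-ACEI (adjusted p = 0.0554), on dropping replicate 2 of Tg-12mo (adjusted p = 0.0558) and without the trend (adjusted p = 0.065). That of 1421889_a_at was lost on dropping replicate 1 of Tg-18mo-ACEI (adjusted p = 0.077), on dropping replicate 1 of Tg-12mo (adjusted p = 0.0516) and without the trend (adjusted p = 0.0561). The dim 1421888_x_at differed by 0.38 ± 0.14, adjusted p = 0.062, and was called without Tg-12mo replicate 2 (adjusted p = 0.046) and after division by the chip median (adjusted p = 0.0496).

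The fifth Aplp2 probe set, 1432344_a_at, moved the other way with captopril. Its signals were 398 and 272 for Tg-18mo, 608 and 591 for captopril, and 409 and 480.2 for Tg-12mo. Both captopril chips lay above the other 4 chips, and the Tg-18mo chips differed from each other by more than those of any other group. The captopril difference was 0.86 ± 0.17, adjusted p = 0.0057, the largest among the members, and it was 0.59 (adjusted p = 0.0227) without Tg-18mo replicate 2. Set against the brightest Aplp2 probe set, the difference of the log2 differences was 1.14 ± 0.24, adjusted p = 0.029. In this fit, chosen after the values were seen, each further probe set of a gene was compared with the brightest one over 8797 pairs. Of the 12 member pairs 2 (16.7%) were called with captopril, beside 19.6% of all pairs, and 0 or 1 with a chip of the compared groups left out. This Aplp2 call was lost on dropping replicate 2 of Tg-18mo (adjusted p = 0.0826) and without either Tg-18mo-ACEI chip (adjusted p = 0.127 each). For Tg-12mo against Tg-18mo, 1432344_a_at differed by 0.43 ± 0.17, adjusted p = 0.069, and by 0.54 (adjusted p = 0.033) after quantile normalization. Without Tg-18mo replicate 1 this was 0.70 (adjusted p = 0.00705). Between Tg-18mo-ACEI and Tg-12mo it differed by 0.44 ± 0.17, adjusted p = 0.072, a difference that was called with these groups fitted alone (adjusted p = 0.016) and without either Tg-18mo chip (adjusted p = 0.02 and 0.018).

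**Figure D3:**
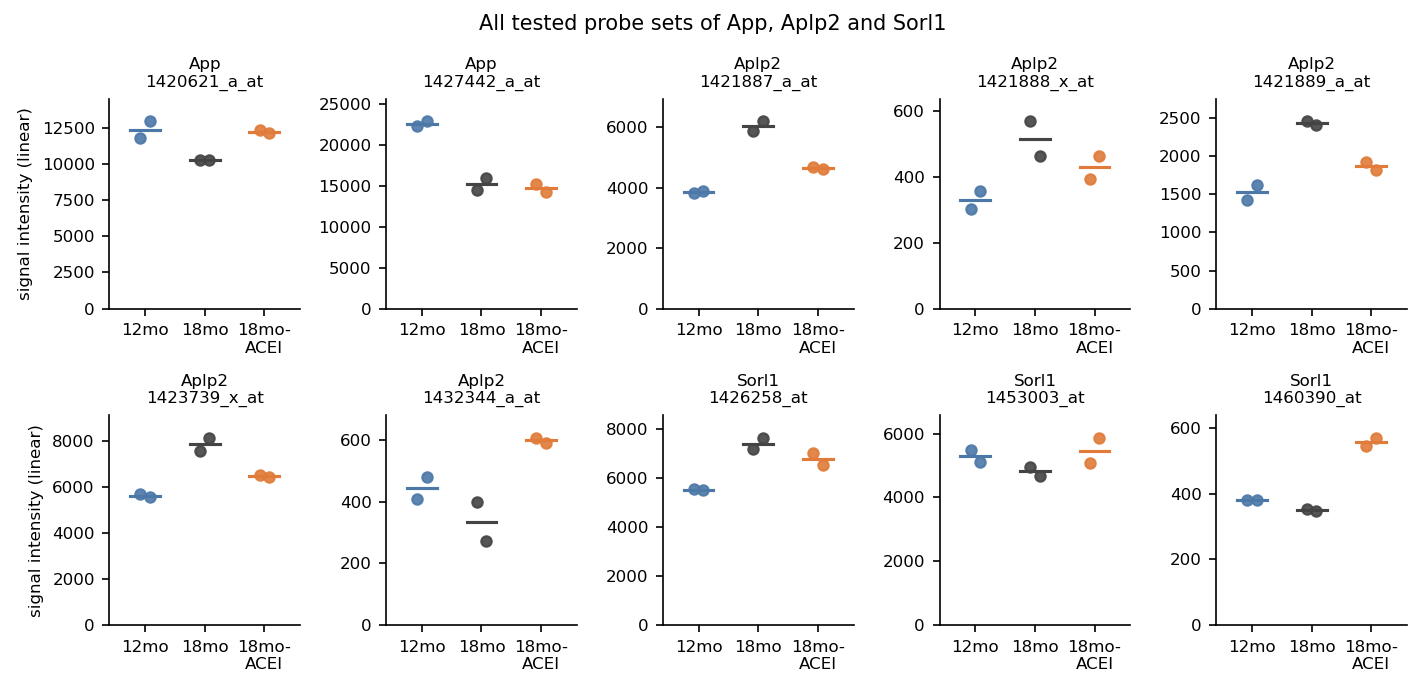
Signal intensity on a linear scale from 0 (y axis) for the 10 tested probe sets of App, Aplp2 and Sorl1 on the 6 chips; points are chips, 2 per group, and short lines are group means. For Aplp2, 4 probe sets have their highest mean in Tg-18mo while 1432344_a_at has its highest in Tg-18mo-ACEI; for Sorl1, 1426258_at has its highest mean in Tg-18mo and 1460390_at in Tg-18mo-ACEI.

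Apba1 and Apba2, which encode X11α and X11β and slow the processing of App when overproduced, were both lower in Tg-18mo-ACEI and in Tg-12mo than in Tg-18mo. The signals of Apba1 (1455369_at) were 2798 and 2746 for Tg-18mo, 2186 and 2056 for captopril, and 1809 and 1899.6 for Tg-12mo. No chips overlapped between groups. Apba1 was lower with captopril, at -0.39 ± 0.055, adjusted p = 0.0012, and at 12 months, at -0.58 ± 0.055, adjusted p = 8.2e-05. In Tg-18mo-ACEI it was higher than in Tg-12mo by 0.19 ± 0.055, adjusted p = 0.023. The latter call was lost after quantile normalization (adjusted p = 0.087), without the trend (adjusted p = 0.0794), on dropping replicate 1 of Tg-12mo (adjusted p = 0.0964) and on dropping replicate 1 of Tg-18mo-ACEI (adjusted p = 0.136). The other Apba1 probe sets, 1437940_at and 1459605_at, stayed below 100 on all 6 chips. The signals of Apba2 (1427288_at) were 3224 and 3513 for Tg-18mo, 2596 and 2590.2 for captopril, and 2479.7 and 2394 for Tg-12mo. Tg-18mo again stood above both other groups. Apba2 differed by -0.38 ± 0.056, adjusted p = 0.0015 with captopril, by -0.47 ± 0.056, adjusted p = 0.00026 at 12 months, and by 0.090 ± 0.056, adjusted p = 0.23 between Tg-18mo-ACEI and Tg-12mo.

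Apbb1 encodes Fe65, an adaptor that binds the App tail and can enter the nucleus with the fragment released from it. Its probe set 1423893_x_at had signals of 6998 and 7036 for Tg-18mo, 6752 and 6564 for captopril, and 6989 and 7552 for Tg-12mo. No difference was called in any comparison, at -0.076 ± 0.051, adjusted p = 0.28 with captopril, 0.050 ± 0.051, adjusted p = 0.44 at 12 months and -0.13 ± 0.051, adjusted p = 0.078 between Tg-18mo-ACEI and Tg-12mo. The last was called without Tg-12mo replicate 1 (adjusted p = 0.0425). The other, 1423892_at, had signals of 5094 and 5101 for Tg-18mo, 3826 and 4029 for captopril, and 4607 and 4752 for Tg-12mo. Tg-18mo-ACEI was the lowest group without overlap. The probe set was lower with captopril than in Tg-18mo, at -0.38 ± 0.047, adjusted p = 0.00066, and lower than in Tg-12mo, at -0.25 ± 0.047, adjusted p = 0.0034. Its age difference was -0.12 ± 0.047, adjusted p = 0.061, and after quantile normalization -0.18 (adjusted p = 0.012). The captopril difference between both Apbb1 probe sets was -0.30 ± 0.086, adjusted p = 0.064 and was not called.

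Apbb2, the Fe65-like relative of Apbb1, was not called with captopril in any of its 3 probe sets. The brightest, 1426719_at, had signals of 1703 and 1889 for Tg-18mo, 1684 and 1659.7 for captopril, and 1109.8 and 1312 for Tg-12mo, and the Tg-12mo chips were the lowest. It differed by -0.10 ± 0.087, adjusted p = 0.4 with captopril, was lower at 12 months at -0.57 ± 0.087, adjusted p = 0.00092, and was higher in Tg-18mo-ACEI than in Tg-12mo by 0.47 ± 0.087, adjusted p = 0.0032. The dim probe set 1426720_at moved the other way with age, at 109.8 and 96.6 for Tg-18mo, 122 and 144 for captopril, and 171 and 162 for Tg-12mo. Its age difference was 0.69 ± 0.20, adjusted p = 0.02, a call lost on dropping replicate 2 of Tg-18mo (adjusted p = 0.105) and on dropping replicate 1 of Tg-12mo (adjusted p = 0.0604). It differed by 0.36 ± 0.20, adjusted p = 0.19 with captopril and by -0.33 ± 0.20, adjusted p = 0.22 between Tg-18mo-ACEI and Tg-12mo. The third, 1452342_at, lay between 1151 and 1225 on all 6 chips. Its differences were -0.00096 ± 0.057, adjusted p = 0.99 with captopril, -0.070 ± 0.057, adjusted p = 0.34 at 12 months and 0.069 ± 0.057, adjusted p = 0.36 between Tg-18mo-ACEI and Tg-12mo. The age differences of 1426720_at and 1452342_at departed from that of 1426719_at by 1.26 ± 0.20, adjusted p = 0.0076 and 0.50 ± 0.11, adjusted p = 0.022. The call of 1452342_at here was lost on dropping replicate 1 or 2 of Tg-18mo (adjusted p = 0.0579 and 0.105) or replicate 1 of Tg-12mo (adjusted p = 0.0663). Over all members, 6 of 12 pairs (50%) departed with age, beside 35.5% of all pairs, and 3 of 12 (25%) between Tg-18mo-ACEI and Tg-12mo, beside 24.1%. With a chip of the compared groups left out, 2 or 3 pairs were called with age, and between Tg-18mo-ACEI and Tg-12mo 0 without either Tg-18mo-ACEI chip.

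Itm2b encodes BRI2, a membrane protein with a BRICHOS domain that binds App, and its mutations cause the familial British and Danish dementias. The signals of 1418000_a_at were 15739.9 and 17093 for Tg-18mo, 16447 and 15142 for captopril, and 22697 and 23413 for Tg-12mo. For 1417999_at they were 15278 and 15353 for Tg-18mo, 14269 and 14190.3 for captopril, and 23828 and 22034 for Tg-12mo. Neither was called with captopril, at -0.056 ± 0.059, adjusted p = 0.5 and -0.11 ± 0.049, adjusted p = 0.13. Both were called higher at 12 months as deposited, by 0.49 ± 0.059, adjusted p = 0.00027 and 0.58 ± 0.049, adjusted p = 5e-05. After quantile normalization these differences were -0.12 (adjusted p = 0.013) and -0.014 (adjusted p = 0.85). The third probe set, 1418001_at, stayed below 40 on all 6 chips.

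Against Tg-12mo, the captopril-treated mice had lower deposited signals for the same 4 bright probe sets of App, Aplp1 and Itm2b. The differences were -0.62 ± 0.059, adjusted p = 0.00011 for App 1427442_a_at, -0.53 ± 0.069, adjusted p = 0.00051 for Aplp1 1435857_s_at, -0.55 ± 0.059, adjusted p = 2e-04 for Itm2b 1418000_a_at and -0.69 ± 0.049, adjusted p = 3.2e-05 for Itm2b 1417999_at. After quantile normalization they were 0.050 (adjusted p = 0.26), 0.13 (adjusted p = 0.024), 0.14 (adjusted p = 0.0073) and -0.0077 (adjusted p = 0.92). Of 633 probe sets of that brightness, 602 (95.1%) were called lower in this comparison. The sign of the first 3 of these member differences turned with the scaling.

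**Figure D4:**
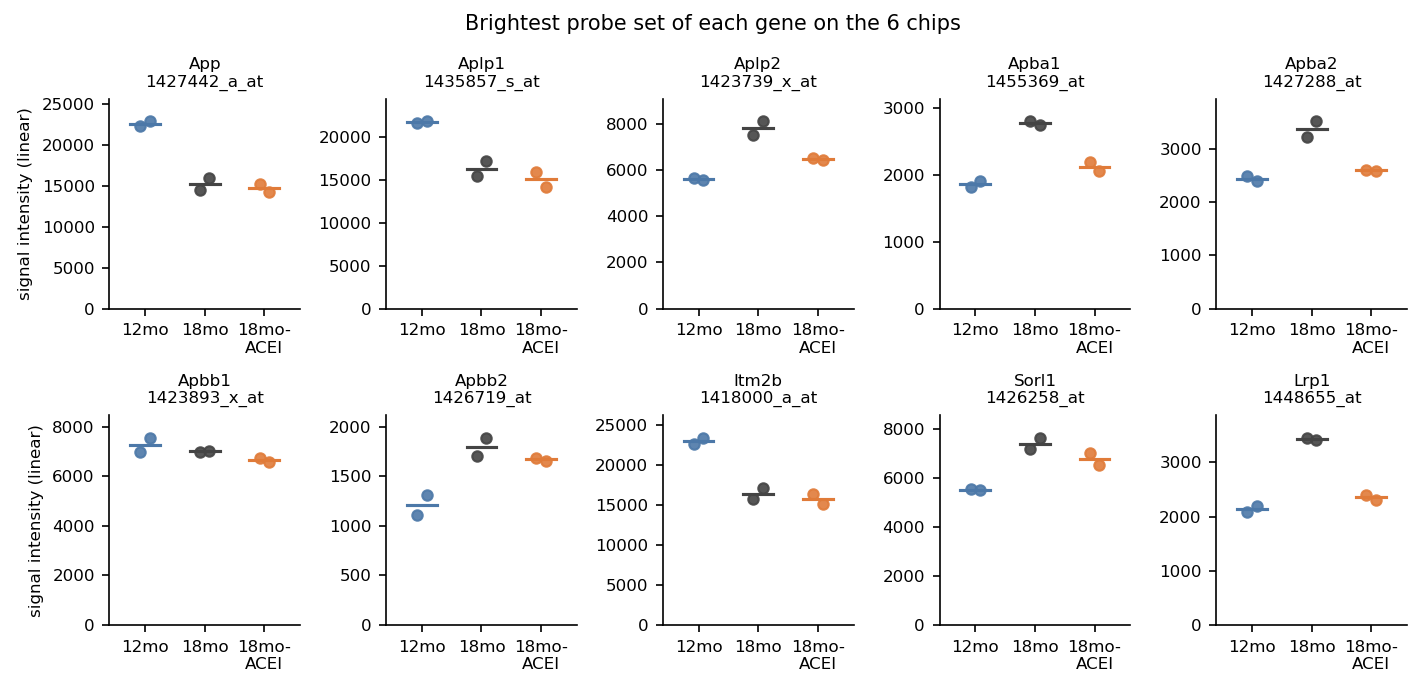
Signal intensity on a linear scale from 0 (y axis) of the brightest probe set of each of the 10 genes on the 6 chips; points are chips, 2 per group, and short lines are group means. Lrp1, Aplp2, Apba1 and Apba2 have their highest signals in Tg-18mo; App, Aplp1 and Itm2b have theirs in Tg-12mo, where the brightest signals of the chips were also higher.

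Sorl1 encodes SorLA, a receptor with a Vps10p domain that binds App and steers it away from the compartments where it is cut. The brightest probe set, 1426258_at, had signals of 7174 and 7647 for Tg-18mo, 7013 and 6518 for captopril, and 5556 and 5502 for Tg-12mo. The groups did not overlap, and Tg-12mo was the lowest. It was lower at 12 months, at -0.42 ± 0.054, adjusted p = 0.00036, and higher in Tg-18mo-ACEI than in Tg-12mo by 0.29 ± 0.054, adjusted p = 0.0032. The captopril difference from Tg-18mo was -0.13 ± 0.054, adjusted p = 0.093. A dimmer probe set, 1460390_at, gave 353 and 348 for Tg-18mo, 547 and 571 for captopril, and 381 and 381 for Tg-12mo. Both captopril chips stood above the other 4, which lay between 348 and 381. It was higher with captopril by 0.67 ± 0.092, adjusted p = 0.00096 against Tg-18mo and by 0.55 ± 0.092, adjusted p = 0.0019 against Tg-12mo, calls that held when any chip was left out and under each scaling. Its age difference was 0.12 ± 0.092, adjusted p = 0.3.

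The captopril difference of Sorl1 1460390_at departed from that of 1426258_at by 0.81 ± 0.14, adjusted p = 0.015. This call was lost when any of the 4 chips of these groups was left out (adjusted p = 0.0601 to 0.0989). The third Sorl1 probe set, 1453003_at, had signals of 4953 and 4674 for Tg-18mo, 5065 and 5864 for captopril, and 5491 and 5114 for Tg-12mo and was not called. Its differences were 0.18 ± 0.074, adjusted p = 0.095 with captopril, 0.14 ± 0.074, adjusted p = 0.16 at 12 months and 0.040 ± 0.074, adjusted p = 0.7 between Tg-18mo-ACEI and Tg-12mo. Without Tg-18mo-ACEI replicate 1 its captopril difference was 0.29 (adjusted p = 0.0258).

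Lrp1, a large uptake receptor for apolipoprotein E, App and Aβ, had the largest fall among the members in both comparisons with Tg-18mo by point estimate. At 12 months the Aplp2 probe sets 1421889_a_at, 1421888_x_at and 1421887_a_at lay within the SE of Lrp1. The signals of Lrp1 1448655_at were 3453 and 3415 for Tg-18mo, 2407 and 2299 for captopril, and 2078 and 2203 for Tg-12mo. Both Tg-18mo chips stood apart above the other 4. With captopril the level was 0.685-fold that of Tg-18mo (-0.55 ± 0.053, adjusted p = 0.00017), and at 12 months 0.623-fold (-0.68 ± 0.053, adjusted p = 3.3e-05). Both falls were called in every limma alternative, with -0.57 and -0.66 after quantile normalization. Tg-18mo-ACEI and Tg-12mo differed by 0.14 ± 0.053, adjusted p = 0.071, with a 95% interval from 0.016 to 0.26. The second Lrp1 probe set, 1442849_at, stayed below 60 on all 6 chips. With the methods' t-test on linear signals, the age difference of Lrp1 1448655_at was the 1 member difference that passed after Benjamini-Hochberg adjustment. The study required a 2-fold change together with an unadjusted p of at most 0.01 in this test. Of the 22 members, 0 met both in any comparison. Over all probe sets, 451 were higher and 104 lower by these criteria with captopril. Between the ages these numbers were 177 and 273, and between Tg-18mo-ACEI and Tg-12mo 221 and 131. An unadjusted p under 0.05 in this test was seen for 10, 16 and 10 members. No share of all probe sets is given at that threshold, so these counts cannot be read as a result about the members.

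Markers of cell types were also followed with captopril. Over all probe sets tested, 15.9% were called higher and 17.7% lower in this comparison. Of 10 markers of the choroid plexus, 9 were called lower with captopril, and their median log2 difference was -2.46. Their summed signal was 27510 to 29964 for Tg-18mo and 20772 to 22692 for captopril, with Ttr, a thyroid hormone carrier, as the brightest at means of 18677 and 19364. Of 8 meningeal markers, 5 were lower, with summed signals of 8633 to 8731 for Tg-18mo and 4774 to 4815 for captopril. The brightest of them was Igf2, a growth factor, at 3379.6 and 1184. Of 9 oligodendrocyte markers 5 were lower, of 10 general neuronal markers 4, and of 10 endothelial and mural markers 3 were lower and 2 higher. Mbp, a myelin protein, was the brightest oligodendrocyte marker, Snap25, a synaptic protein, the brightest neuronal one, and Rgs5, a regulator of G-protein signalling, the brightest mural one. The summed signals were 57396 to 59004 against 50124 to 52091 for oligodendrocytes, 103316 to 107406 against 97809 to 101807 for neurons, and 10724 to 11459.7 against 8954 to 9072 for endothelium and mural cells. With captopril, the means of some choroid plexus, meningeal and mural markers lay below 100, the signal needed for testing in at least 1 group. The part of all these markers in the results for Lrp1, Aplp2, Apba1, Apba2 and Apbb1 was not tested.

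Like the endothelial and mural list, the other marker lists held markers called in both directions with captopril, beside 15.9% of all probe sets higher and 17.7% lower. Of the 10 markers of hippocampal neurons 3 were higher and 1 lower, and their summed signal was 27470.3 to 28193 for Tg-18mo and 30070.2 to 31823 for captopril, without overlap. Of 10 astrocyte markers 3 were higher and 3 lower, at sums of 59264.5 to 60947 and 62378 to 64225. Of 9 microglial markers 2 were higher and 3 lower, at sums of 17643 to 18129 and 17393 to 17496.

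With age, 6 of 10 endothelial and mural markers were lower at 12 than at 18 months, at a summed signal of 7376 to 8059 in Tg-12mo. Of 9 microglial markers, 5 were lower and 2 higher, and the summed signal was 17122 to 17129 in Tg-12mo and 17643 to 18129 in Tg-18mo. Csf1r, a growth factor receptor, was the brightest of these. Astrocyte markers were called higher in 5 and lower in 3 of 10, with Aldoc, a glycolytic enzyme, as the brightest. General neuronal markers were higher in 5 and lower in 3 of 10, oligodendrocyte markers higher in 4 and lower in 4 of 9, choroid plexus markers higher in 2 and lower in 4 of 10, meningeal markers higher in 3 and lower in 1 of 8, and hippocampal neuron markers higher in 2 and lower in 2 of 10. These calls are of the deposited signals. The median log2 difference turned after quantile normalization for general neuronal (0.11 to -0.20), oligodendrocyte (0.090 to -0.15) and astrocyte markers (0.094 to -0.058). It also turned for hippocampal neuron (-0.049 to 0.019) and choroid plexus markers (-0.037 to 0.044). The medians of microglial, endothelial and mural, and meningeal markers kept their sign. The part of these markers in the age differences of Lrp1 and the other members was not tested.

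In Tg-18mo-ACEI against Tg-12mo, 10 of 10 choroid plexus markers were lower, with a median log2 difference of -2.25, as were 6 of 8 meningeal markers, with a median of -1.10. General neuronal markers were lower in 7 and higher in 2 of 10 as deposited, with a median of -0.22 that was 0.15 after quantile normalization. Oligodendrocyte markers were higher in 3 and lower in 4 of 9, endothelial and mural markers higher in 4 and lower in 3 of 10, and astrocyte markers higher in 3 and lower in 2 of 10. Microglial markers were higher in 4 and lower in 1 of 9, and hippocampal neuron markers higher in 4 and lower in 1 of 10. Their part in the member differences was not tested.

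Other genes of the pathway were taken as 4 lists, each gene by its brightest probe set. Of 65 genes, 60 were measured. With captopril 5 were higher (8.33%, beside 15.9% of all probe sets tested), 16 lower (26.7%, beside 17.7%) and 39 not called, and their median log2 difference was -0.093. The 16 became 6 without Tg-18mo-ACEI replicate 2 and 10 without either Tg-18mo chip. For Tg-12mo against Tg-18mo 19 were higher (31.7%, beside 21.5%), 29 lower (48.3%, beside 25.9%) and 12 not called, with a median of -0.19, and 19 were lower without Tg-18mo replicate 1. Between Tg-18mo-ACEI and Tg-12mo 17 were higher (28.3%, beside 22.3%) and 19 lower (31.7%, beside 17.7%), with a median of 0.085. Because list genes were taken by their brightest probe set and the background is over all probe sets, these shares are only a description.

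Among 19 other adaptors measured, 4 were lower (21.1%, beside the 17.7% of all probe sets) and 15 not called with captopril. Dab2, an endocytic adaptor of Lrp1 and its relatives, was lower at 281 against 438 (-0.63 ± 0.16, adjusted p = 0.016). Apba3, the third X11 protein, fell as its relatives did, at 463 against 602 (-0.38 ± 0.090, adjusted p = 0.013). Mapk8ip1, a scaffold of JNK signalling that binds the App tail, was 1792 against 2212 (-0.30 ± 0.064, adjusted p = 0.0076). At 12 months 6 adaptors were higher (31.6%, beside 21.5%) and 10 lower (52.6%, beside 25.9%) than at 18 months. Mapk8ip1 had the largest difference, with 551 against 2212 (-2.01 ± 0.064, adjusted p = 1.4e-06), and it was higher in Tg-18mo-ACEI than in Tg-12mo at 1792 against 551 (1.70 ± 0.064, adjusted p = 2.7e-06). The dimmer Mapk8ip1 probe set 1440619_at was not called in any comparison, at -0.24, adjusted p = 0.31 with captopril, -0.034, adjusted p = 0.89 at 12 months and -0.21, adjusted p = 0.37 between Tg-18mo-ACEI and Tg-12mo. Numbl, a Numb-like endocytic adaptor, was lower at 12 months with 451 against 970.3 (-1.12 ± 0.14, adjusted p = 0.00033), as was Shc1, an adaptor of receptor tyrosine kinases, with 104 against 200.3 (-0.94 ± 0.23, adjusted p = 0.0093). Between Tg-18mo-ACEI and Tg-12mo, Numbl was higher at 804 against 451 (0.84 ± 0.14, adjusted p = 0.0019). Snx17, which recycles Lrp1 and App from endosomes, was lower at 9181 against 14786 (-0.69 ± 0.049, adjusted p = 3.1e-05), or -0.27 after quantile normalization.

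Among 13 other receptors measured, 5 were lower (38.5%, beside 17.7%) and 8 not called with captopril. Lrp10, a small relative of Lrp1, was 1221 against 1555 (-0.35 ± 0.063, adjusted p = 0.004). Sort1, which encodes sortilin, was 6094 against 7174 (-0.24 ± 0.057, adjusted p = 0.014). Sorcs3, a neuronal Vps10p receptor, was 1086 against 1261 (-0.22 ± 0.059, adjusted p = 0.024). A dimmer Sort1 probe set, 1423363_at, was called higher with captopril (0.52, adjusted p = 0.015), and 1450955_s_at was not called (0.092, adjusted p = 0.36), so the Sort1 probe sets disagreed. At 12 months 3 receptors were higher (23.1%, beside 21.5%) and 7 lower (53.8%, beside 25.9%). Lrp4, a receptor of the neuromuscular synapse that is also made in brain, was 94.0 against 279 (-1.57 ± 0.16, adjusted p = 9.9e-05). Vldlr, a receptor of reelin, was higher at 4172 against 2452 (0.77 ± 0.066, adjusted p = 5e-05), but its probe set 1435893_at was lower (-0.33, adjusted p = 0.0032). Lrp8, the other reelin receptor, was 555 against 896 (-0.73 ± 0.18, adjusted p = 0.011), whereas its probe set 1440882_at was not called, at -0.061, adjusted p = 0.62. Between Tg-18mo-ACEI and Tg-12mo, Lrp4 was higher at 320.2 against 94.0 (1.77 ± 0.16, adjusted p = 7.5e-05). Vldlr was lower at 2125 against 4172 (-0.97 ± 0.066, adjusted p = 2.7e-05). Its probe set 1417900_a_at was lower as well (-0.56, adjusted p = 0.00012), whereas 1438258_at (0.90, adjusted p = 0.00025) and 1435893_at (0.21, adjusted p = 0.031) were higher. Sorcs1, a Vps10p receptor that binds App, was lower at 175 against 317 (-0.87 ± 0.15, adjusted p = 0.002). Its dim probe set 1425864_a_at was not called there, at 0.086, adjusted p = 0.85, and was lower at 12 months (-0.997, adjusted p = 0.028), where the brighter one was higher, at 317 against 234 (0.44 ± 0.15, adjusted p = 0.037).

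Of 19 retromer, GGA and endocytic genes, 3 were higher (15.8%, beside 15.9%) and 5 lower (26.3%, beside 17.7%) with captopril. Ap2b1, the β subunit of the clathrin adaptor AP-2, was 2512 against 4832 (-0.94 ± 0.056, adjusted p = 1.2e-05), and its second probe set 1427077_a_at was lower as well (-0.30, adjusted p = 0.031). Gga1, a Golgi adaptor that binds the tail of Sorl1, was 636 against 1027 (-0.69 ± 0.15, adjusted p = 0.008). Snx6, a sorting nexin of the retromer, rose at 1329 against 887 (0.58 ± 0.067, adjusted p = 0.00041), as did its probe sets 1425148_a_at (1.05, adjusted p = 3.1e-05) and 1429497_s_at (0.35, adjusted p = 0.03). The dim Snx6 probe set 1451602_at was not called, at -0.47, adjusted p = 0.16. At 12 months 5 of these genes were higher (26.3%, beside 21.5%) and 10 lower (52.6%, beside 25.9%). Ap2b1 was 1800.5 against 4832 (-1.42 ± 0.056, adjusted p = 2.4e-06), Gga1 464 against 1027 (-1.14 ± 0.15, adjusted p = 0.00039) and Ap2a1, an α subunit of AP-2, 695 against 1232 (-0.82 ± 0.080, adjusted p = 8.7e-05). In Tg-18mo-ACEI against Tg-12mo 7 were higher (36.8%, beside 22.3%) and 6 lower (31.6%, beside 17.7%). The 3 largest differences were those of Ap2b1 at 2512 against 1800.5 (0.48 ± 0.056, adjusted p = 3e-04), with 1427077_a_at not called, at 0.15, adjusted p = 0.22, Gga1 at 636 against 464 (0.44 ± 0.15, adjusted p = 0.042), which was not called after quantile normalization (adjusted p = 0.12), and Bin1, a membrane-bending protein of endocytosis, at 2291 against 1723 (0.41 ± 0.065, adjusted p = 0.0014).

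Of 9 Itm2 relatives and extracellular partners, 2 were higher and 2 lower with captopril (22.2% each, beside 15.9% and 17.7%). Tgfb2, a growth factor that binds App, was higher at 2014 against 1030.4 (0.97 ± 0.068, adjusted p = 2.9e-05), but its probe sets 1450922_a_at (-0.56, adjusted p = 0.0019) and 1450923_at (-0.28, adjusted p = 0.014) were lower. A2m, a protease inhibitor taken up by Lrp1, was 210.4 against 385 (-0.87 ± 0.12, adjusted p = 0.00083). Gpc1, a heparan sulfate proteoglycan, was 1974 against 2567 (-0.38 ± 0.064, adjusted p = 0.0028). At 12 months 5 were higher (55.6%, beside 21.5%) and 2 lower (22.2%, beside 25.9%). Tgfb2 was 1900.3 against 1030.4 (0.88 ± 0.068, adjusted p = 3.2e-05), with 1438303_at (-1.04, adjusted p = 0.00063) and 1450923_at (-0.30, adjusted p = 0.0066) lower. Itm2a, a relative of Itm2b, was 5661 against 3791 (0.58 ± 0.049, adjusted p = 4.9e-05). Clu, the carrier protein clusterin, was higher as deposited at 29991 against 17771 (0.76 ± 0.064, adjusted p = 4.9e-05), but 0.072 (adjusted p = 0.11) after quantile normalization. Among the 5 called higher, Apoe (-0.070, adjusted p = 0.12) and Itm2c (-0.071, adjusted p = 0.11) also lost the call with that scaling, while Tgfb2 and Itm2a kept it. Of the 2 called lower, Reln lost its call (-0.11, adjusted p = 0.15) and Gpc1 kept it. Against Tg-12mo, Tg-18mo-ACEI had lower Clu at 16709.6 against 29991 (-0.84 ± 0.064, adjusted p = 3.9e-05) and lower Apoe, the main lipid carrier of the brain, at 13923 against 22441 (-0.69 ± 0.058, adjusted p = 6.1e-05). After quantile normalization these differences were -0.094 (adjusted p = 0.053) and -0.022 (adjusted p = 0.65). A2m was lower at 210.4 against 320.2 (-0.60 ± 0.12, adjusted p = 0.0037).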

How the data were processed

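Hippocampal RNA of male Tg2576 mice, pooled from 4 animals per chip, was measured on 6 chips, 2 for each of 3 groups taken from the labels. The deposited intensity values are linear signals that the authors made with GCOS, named in their processing notes, and scaled to a target value of 600. Detection calls were not used here, and no genome build enters the signals. Control probe sets (64) were left out, and 23262 probe sets were tested, those whose mean reached 100 in any group. Log2 signals were fitted as 3 group means with R 4.3.3 and limma 3.58.1 (lmFit, eBayes with an intensity trend, 3 residual and 5.37 prior degrees of freedom), adjusted by Benjamini-Hochberg and called at 0.05. The fit was tested on simulated data. No reads were counted, so the number of chips limits precision.

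Genes were chosen, and lists and alternatives fixed, with earlier results of these data known. All member probe sets are accounted for, with each chip's signal for the brightest probe set of each gene and for those called with a log2 difference of at least 0.5. From each list the 3 largest called differences per comparison are named, and from marker lists the brightest gene where the list is used. Signals of a few more members are also given. Probe set names come from the platform annotation, in which 34958 probe sets have 1 symbol, 932 several and 9211 none. Promoter windows are from RefSeq (GRCm38.p6), where all 10 genes matched. As alternatives, 32 was added to the signals, the filter was dropped or set to a mean of 200, chips were quantile-normalized or divided by their medians, the fit was limited to a pair of groups, given a replicate block or run without the trend, the methods' t-test was run on linear and log2 signals, each chip was left out in turn, and list genes were averaged over their probe sets. The comparison of probe sets with the brightest of their gene was added after the values were seen. Further tools were Python 3.11.15, pandas 2.3.3 and matplotlib 3.10.9.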

Additional observations from a re-analysis of the deposited data

How the results depend on the processing

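Of 66 member differences (22 probe sets in 3 comparisons), 39 were called, 31 of these had the same direction in every alternative run, 23 were also called in every limma alternative, and after quantile normalization 8 changed sign and 2 more kept theirs but were no longer called. Values are log2 differences in the order captopril against Tg-18mo (A), Tg-12mo against Tg-18mo (B), and captopril against Tg-12mo (C). Quantile normalization turned the sign of App 1427442_a_at (0.040 in A, -0.0100 in B, 0.050 in C), App 1420621_a_at (-0.054 in B, 0.42 in C), Aplp1 1435857_s_at (-0.18 in B, 0.13 in C), Itm2b 1418000_a_at (0.023 in A, -0.12 in B, 0.14 in C), Itm2b 1417999_at (-0.014 in B), Apbb1 1423893_x_at (-0.12 in B, 0.064 in C) and Apbb2 1452342_at (0.016 in B, -0.037 in C). Division by the chip median turned Apbb2 1452342_at in A (0.029) and App 1420621_a_at in C (0.0012). Leaving out each chip in turn gave ranges that crossed 0 for differences that were not called, in A for App 1427442_a_at (-0.12 to 0.018; above 0 without Tg-18mo replicate 2), Apbb2 1452342_at (-0.016 to 0.014; 0.0024 without Tg-18mo replicate 2, highest without Tg-18mo-ACEI replicate 2) and Itm2b 1418000_a_at (-0.12 to 0.0039; 0.0038 without Tg-18mo replicate 2, highest without Tg-18mo-ACEI replicate 2), in B for Apbb1 1423893_x_at (-0.0059 to 0.11; lowest without Tg-12mo replicate 2), and in C for App 1420621_a_at (-0.081 to 0.051; highest without Tg-12mo replicate 2) and Sorl1 1453003_at (-0.065 to 0.15; lowest without Tg-18mo-ACEI replicate 2, -0.011 without Tg-12mo replicate 2). The cause was not tested.

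Counts of called members moved from 6 to 2 higher in B and from 5 to 1 lower in C under quantile normalization, and from 7 to 4 higher in C without an intensity trend. With quantile normalization, about as many of all probe sets were called higher as lower in B and in C. After adjustment, the methods' t-test called 0 members, on linear and on log2 signals, in A, B and C in both directions, except 1 lower in B on linear signals (Lrp1). Among the pathway genes this test called 0 in A and C on both scales, 3 higher in B on both, and in B 6 lower on linear and 5 on log2 signals. Over all probe sets it called 79 higher and 39 lower in A on linear signals and 44 and 27 on log2 signals, 560 and 636 or 495 and 564 in B, and 118 and 134 or 9 and 13 in C. With the mean of all probe sets per gene, 8 pathway genes were higher in A and 10 lower in C, against 5 and 19. Leaving out each chip in turn gave 4 to 8 higher members in C (4 without Tg-18mo-ACEI replicate 1), 6 to 17 lower pathway genes in A (6 without Tg-18mo-ACEI replicate 2, 10 without either Tg-18mo chip) and 19 to 27 in B (19 without Tg-18mo replicate 1). Over all probe sets in A it gave 2261 to 4036 higher (2376 without Tg-18mo replicate 2, and the lowest when replicate 2 of Tg-18mo-ACEI was left out) and 2084 to 4597 lower (2084 to 2714 with 1 of the 4 compared chips left out). Pairs of probe sets of 1 member called numbered 0 to 2 in A, 2 to 4 in B and 0 to 3 in C, and 1 in C after quantile normalization.

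Chips of different groups share replicate numbers, but chips of the same number did not deviate together (r = -0.030 in A, 0.034 in B and -0.052 in C), so they share only a number. With the replicate block, 3456 probe sets were higher and 3762 lower in A, against 3690 and 4125 without it, and members called stayed at 3 and 8, 6 and 10, and 7 and 5. No called member lost its call with the block.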
